A study of Mus musculus with 75 samples.

Results

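The xenobiotic sensors are the transcription factors through which liver cells register foreign chemicals. The 10 genes described here were chosen by symbol from the 55536 genes in the deposited table: the receptors Nr1i3 (CAR), Nr1i2 (PXR) and Ahr, the AhR feedback genes Ahrr and Tiparp, the Cyp1 enzymes Cyp1a1, Cyp1a2 and Cyp1b1, and the P450 support genes Por and Alas1. All 10 were found. Liver RNA was sequenced from C57Bl/6 mice labelled male, born to dams that drank water with vehicle or tributyltin (TBT), an organotin biocide. The TBT dose was 0.5 mg per kg of body weight per day (3.07 µM in the water), and it ended at weaning. The offspring livers were sampled at 3 weeks, 5 months and 10 months, and RNA was made into stranded total RNA libraries.

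At 3 weeks there were 8 vehicle and 8 TBT libraries, the 2 libraries of vehicle mouse 3 being summed to leave 7 vehicle samples. At 5 months there were 8 vehicle livers, 16 livers of TBT mice labelled low-risk and 10 of TBT mice labelled high-risk. At 10 months there were 6 vehicle livers, 5 low-risk TBT livers, 6 libraries of uninvolved liver from high-risk TBT mice and 7 tumors of high-risk TBT mice. The uninvolved libraries 3 and 6 were far closer to each other than any other pair of that group and were summed, leaving 5 samples. 1 further vehicle library of 10 months is labelled as a tumor and entered no comparison. The labels used here do not say how risk was assigned, and they give no time of day of sampling. They also do not say that mice came from separate litters, so p-values measure the spread between these samples only.

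CAR and PXR are nuclear receptors that bind DNA together with RXR and turn on genes of drug oxidation, conjugation and export, CAR above all the Cyp2b genes and PXR the Cyp3a genes. AhR waits in the cytoplasm in a complex with heat shock protein 90, and on binding a ligand such as a dioxin it enters the nucleus, pairs with ARNT and induces the Cyp1 genes. The P450 enzymes made in this way need heme, whose synthesis starts with ALAS1, and electrons, which POR passes to them from NADPH. Cyp1a2 is a gene of hepatocytes around the central vein, whereas Cyp1b1 is known mainly from tissues outside the liver and from mesenchymal cells.

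Some libraries stood apart from the rest of the series. Depth ran from 2.83 to 45.4 M counts per library, and all but 1 held at least 6.76 M. The deviating libraries were vehicle 9 of 5 months (2.83 M counts), high-risk 10 (39669 genes detected), low-risk 16 and high-risk 15 of 5 months, 1 library of 3-week vehicle mouse 3, and the vehicle library labelled as a tumor, the last 4 with 11.2 to 14.5% mitochondrial counts. The library labelled TBT 4 of 3 weeks went against its label as male: Xist stood at 309.9 counts per M (CPM), while 4 genes of the Y chromosome summed to 6.30 CPM and the next lowest library had 88.6 CPM of the latter. The library labelled low-risk 24 of 5 months held both kinds, Xist at 95.97 CPM and those 4 genes at 269.1 CPM. The comparisons at 3 weeks and 5 months, the later age step in vehicle livers and the test across ages of the risk difference are also given without deviating libraries. The 6 uninvolved libraries, which were not among the deviating ones, differed from the vehicle, low-risk and tumor libraries of 10 months in depth (34.8 to 44.6 M counts against 22.5 to 33.5 M), genes detected (24676 to 28715 against 21078 to 23868) and mitochondrial counts (4.2 to 5.84% against 2.64 to 3.83%). Hepatocyte markers, albumin among them, were detected in every group.

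The starts of the Cyp1 genes and of Nr1i3 are shown because these 4 genes carried most of the differences described here. Each sequence is the 250 bases before the start of transcription in the RefSeq table of GRCm38.p6, written 5′ to 3′ on the strand of the gene. Capitals mark GCGTG (the core of the AhR site), CACGTG (the E-box of clock factors) and TATAAA (the core promoter box bound by TBP), and the AhR core is capitalised as CACGC where it lies on the other strand. Nr1i3 lies at chr1:171213720-171213969 (+), Cyp1a1 at chr9:57697363-57697612 (+), Cyp1a2 at chr9:57683656-57683905 (-) and Cyp1b1 at chr17:79715062-79715311 (-).
Nr1i3: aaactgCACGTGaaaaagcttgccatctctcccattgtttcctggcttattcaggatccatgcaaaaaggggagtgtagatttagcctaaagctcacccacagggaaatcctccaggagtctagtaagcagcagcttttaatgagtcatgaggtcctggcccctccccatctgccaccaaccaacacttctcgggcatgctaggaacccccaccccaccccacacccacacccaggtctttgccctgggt
Cyp1a1: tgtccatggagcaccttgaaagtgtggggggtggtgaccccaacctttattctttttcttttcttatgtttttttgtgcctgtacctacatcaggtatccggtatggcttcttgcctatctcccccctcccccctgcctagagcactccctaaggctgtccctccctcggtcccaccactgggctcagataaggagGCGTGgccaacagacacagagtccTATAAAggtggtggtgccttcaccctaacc
Cyp1a2: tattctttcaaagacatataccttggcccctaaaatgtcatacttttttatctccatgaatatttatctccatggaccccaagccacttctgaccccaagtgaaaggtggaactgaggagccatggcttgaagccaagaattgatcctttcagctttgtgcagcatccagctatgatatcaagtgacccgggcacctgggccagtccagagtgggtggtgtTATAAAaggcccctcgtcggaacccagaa
Cyp1b1: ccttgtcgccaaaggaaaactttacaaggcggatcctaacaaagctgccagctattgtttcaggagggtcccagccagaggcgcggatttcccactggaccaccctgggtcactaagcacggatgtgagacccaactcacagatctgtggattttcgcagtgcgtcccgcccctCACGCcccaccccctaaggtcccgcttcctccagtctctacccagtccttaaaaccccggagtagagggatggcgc

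Of the 10 members, 9 had an entry in that table, Ahr being the exception. The AhR core GCGTG, searched on both strands, occurred at -54 in the Cyp1a1 stretch and at -76 in that of Cyp1b1, counted from the start of transcription, and not in that of Cyp1a2. It also occurred 3 times before Ahrr, the first at -107, 3 times before Por, the first at -202, and at -170 before Tiparp. Alas1 has a pair of entries, and the core stood at -222 in the second of them and not in the first, while 28.2% of 32851 promoters of this length held it. CACGTG stood at -244 before Nr1i3 and in no other member, against 6.02% of promoters. TATAAA, on the gene's strand alone, stood at -30 before Cyp1a1 and at -29 before Cyp1a2, against 7.59% of promoters. The receptor half-site AGGTCA (4607 of the 32851 promoters) and the D-box TTATGTAA (0.819%) matched in no member, and no matches overlapped. Cyp1a1 and Cyp1a2 are neighbours on chromosome 9 that run in opposite directions, with starts 13958 bases apart.

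By GENCODE M21 on GRCm38, Nr1i3 (ENSMUSG00000005677) spans chr1:171213970-171220701 and Nr1i2 (ENSMUSG00000022809) spans chr16:38248323-38294824. Ahr (ENSMUSG00000019256) spans chr12:35497974-35535038 and Cyp1b1 (ENSMUSG00000024087) spans chr17:79701537-79715061. Cyp1a1 (ENSMUSG00000032315) spans chr9:57687928-57703824 and Cyp1a2 (ENSMUSG00000032310) spans chr9:57676937-57683703. Tomm40l, a mitochondrial import gene on the opposite strand, shares 3304 exon bases with Nr1i3, 74.9% of the annotated exon bases of Nr1i3. The strand setting of the counting is not given in the sources used here, so reads of the pair might not have been kept apart, and Tomm40l values stand beside those of Nr1i3. For Ahr, Tiparp and Alas1 the bases shared with an antisense gene came to 2.06%, 5.12% and 7.53% of the exon bases.

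Levels differed widely between members. Per kb of exons, the median of the 9 group means was 103.3 CPM per kb for Cyp1a2, 62.8 for Por, 44.5 for Alas1 and 27.7 for Nr1i2, the most abundant receptor transcript. Ahr followed at 7.98 CPM per kb, Nr1i3 at 4.51 and Tiparp, an ADP-ribosyltransferase that AhR induces and that dampens AhR, at 2.33. Cyp1b1 at 0.317, Cyp1a1 at 0.235 and Ahrr, the AhR repressor, at 0.0362 CPM per kb were near the lower limit of these libraries. No library held more than 20 counts of Ahrr, which passed the filter on low counts only in the fit of the 10-month vehicle, low-risk and uninvolved livers. The other 9 members passed it in every comparison. The range over the group means was widest for Nr1i3, from 1.97 to 16.5 CPM per kb, and Cyp1b1, from 0.259 to 1.78, and narrow for Nr1i2, from 23.1 to 32.0, and Ahr, from 6.68 to 9.46.

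High-risk and low-risk livers of 5 months were compared to see how the sensors differed between TBT mice with opposite risk labels and the same exposure. Nr1i3 and Cyp1a2 were lower and Cyp1b1 was higher in high-risk livers, while the transcripts of the other receptors, Nr1i2 and Ahr, did not pass the test. With edgeR's quasi-likelihood test and Benjamini-Hochberg adjustment over 14773 genes, 3 of the 9 members tested passed an adjusted p of 0.05. Of all genes tested, 38.9% passed, so the count of members is near the background.

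Nr1i3 ranged from 2.02 to 30.4 CPM in the 10 high-risk livers, with a median of 5.59, and from 10.1 to 69.8 CPM in the 16 low-risk livers, with a median of 33.6. Of the high-risk livers, 8 lay at 7.32 CPM or less, below every low-risk liver, and only livers 22 (18.96 CPM) and 1 (30.4 CPM) overlapped them. Its log2 fold change was -2.19 (SE 0.41, adjusted p = 8.92e-05), 0.220 times the low-risk level. The antisense neighbour Tomm40l also fell, with a log2 fold change of -0.88 (SE 0.23, adjusted p = 0.00287).

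**Figure D1:**
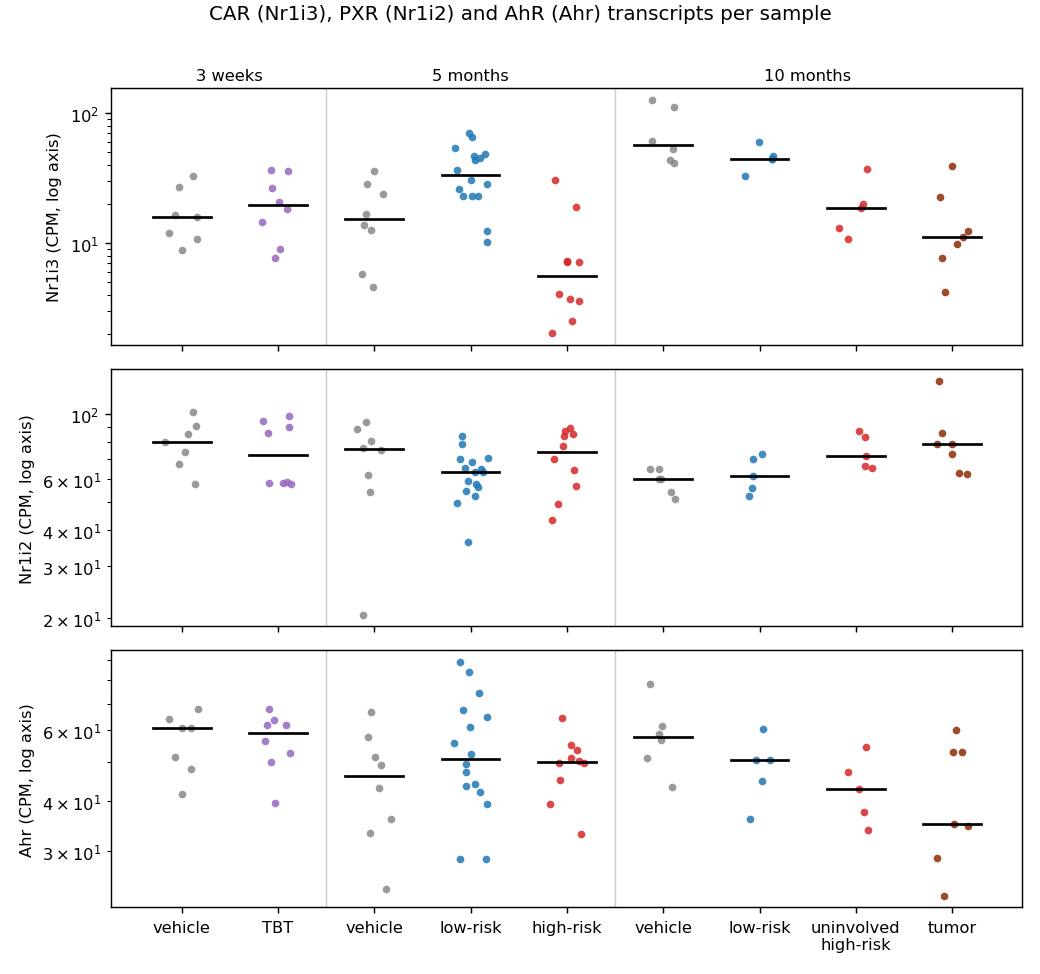
CPM of Nr1i3, Nr1i2 and Ahr on log axes in each sample of the 9 groups, with a bar at the group median. Nr1i3 medians run from 5.59 CPM in high-risk livers of 5 months to 56.8 CPM in vehicle livers of 10 months, while the ranges of Nr1i2 and Ahr overlap between most groups.

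Cyp1a2, the constitutive Cyp1 enzyme of hepatocytes and the main oxidase of caffeine, ranged from 47.7 to 190 CPM in high-risk livers (median 71.4) and from 164 to 675 CPM in low-risk livers (median 351). High-risk liver 1, at 190 CPM, was the only one to reach the low-risk range, whose lowest value was that of library 24. The log2 fold change was -2.06 (SE 0.28, adjusted p = 7.04e-07), 0.240 times the low-risk level. Cyp1b1, which oxidises estrogens and polycyclic hydrocarbons, moved the other way. It ranged from 2.91 to 25.6 CPM in high-risk livers (median 9.61) and from 0.564 to 2.21 CPM in low-risk livers (median 1.74), with no overlap. The fold change was 6.71 (log2 2.75, SE 0.33, adjusted p = 1.68e-07). Cyp1a1, the enzyme most sensitive to AhR ligands, was barely detected, with 0 to 1.11 CPM in high-risk and 0 to 2.43 CPM in low-risk livers (log2 fold change -0.60, SE 0.53, adjusted p = 0.388).

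**Figure D2:**
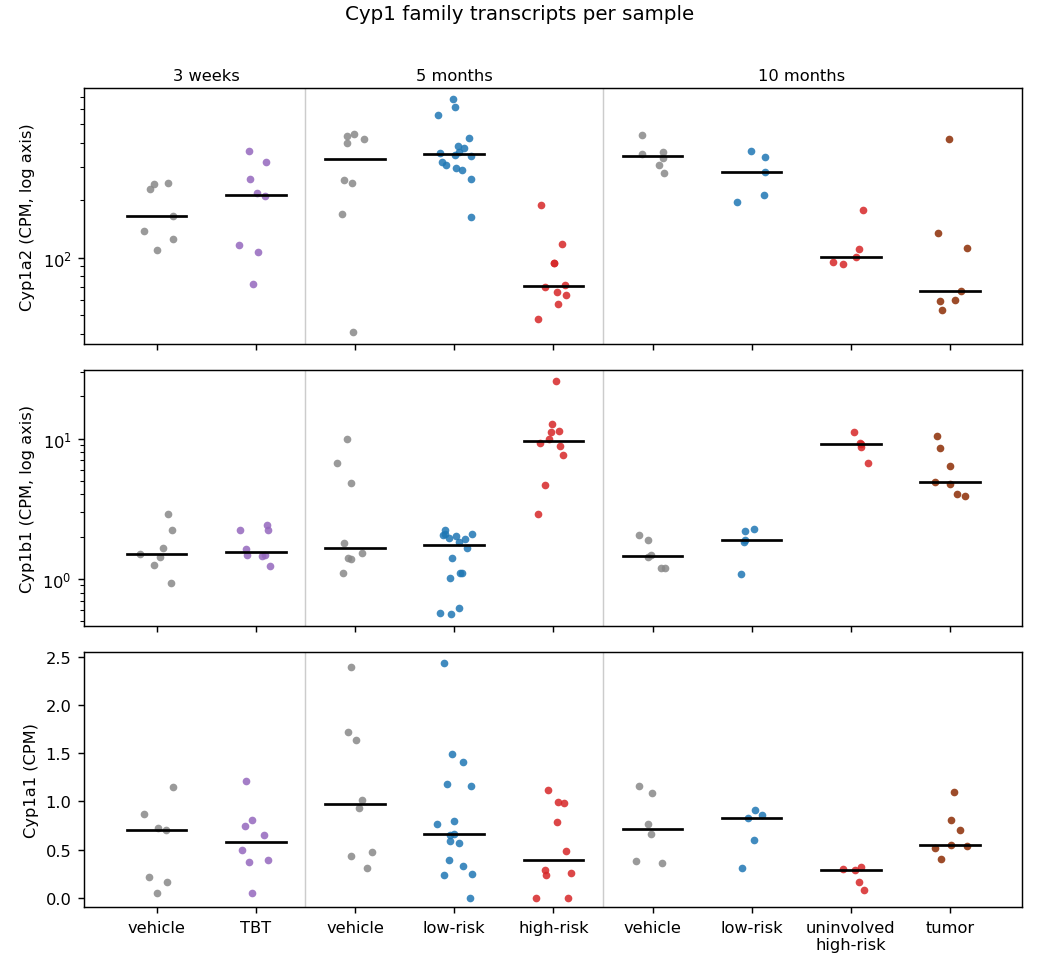
CPM of Cyp1a2 and Cyp1b1 (log axes) and of Cyp1a1 (linear axis) in each sample of the 9 groups, with a bar at the group median. Cyp1b1 lies between 2.91 and 25.6 CPM in every high-risk liver of 5 months and between 0.564 and 2.21 CPM in every low-risk one, and Cyp1a1 reaches 2.43 CPM at most.

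The other members were close between the risk groups of 5 months. Nr1i2 was at 70.8 ± 16.8 CPM (SD, n = 10) in high-risk and 62.2 ± 11.6 CPM (SD, n = 16) in low-risk livers (log2 fold change 0.19, SE 0.14, adjusted p = 0.305), although batch 2 alone gave 0.32 (adjusted p = 0.0282). Ahr was at 49.2 ± 8.57 CPM and 54.5 ± 17.8 CPM in the same livers (log2 fold change -0.12, SE 0.17, adjusted p = 0.583). The log2 fold changes of Tiparp, Por and Alas1 were 0.10, 0.06 and -0.23, each smaller than its SE. Within batch 1, which held 3 high-risk and 6 low-risk livers, the log2 fold changes were -3.10 for Nr1i3, -2.53 for Cyp1a2 and 3.62 for Cyp1b1 (adjusted p 0.0202, 0.0159 and 0.00942). Within batch 2, with 7 and 10 livers, they were -1.80, -1.80 and 2.27 (adjusted p 0.00843, 1.49e-05 and 5.32e-06). Without low-risk 24 they were -2.27, -2.11 and 2.80, and without the deviating libraries -2, -1.98 and 2.53, and all of these passed.

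Markers of zones and cell types also differed in this comparison, where 38.9% of all genes passed. Of 8 pericentral hepatocyte markers, 6 fell and 0 rose, and their summed level ranged from 1290 to 6480 CPM in high-risk livers and from 7130 to 15500 CPM in low-risk livers. Of 9 stellate cell and fibroblast markers, 7 rose and 1 fell, with summed levels of 589 to 1500 CPM and 333 to 672 CPM, and of 5 cholangiocyte markers 4 rose, with 32.8 to 350 CPM and 27.3 to 221 CPM. Of 6 hepatocyte markers 3 fell and 1 rose, with 64500 to 171000 CPM and 76500 to 173000 CPM. No marker of these lists was at 0 in all samples of a group. Their part in the differences of Nr1i3, Cyp1a2 and Cyp1b1 was not tested, and in bulk liver fewer cells of a type and less RNA per cell cannot be told apart.

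Vehicle livers of 5 months spread more widely than low-risk livers in Cyp1b1, and the comparisons with them share the high-risk or low-risk livers of the comparison above. Nr1i3 ranged from 4.55 to 35.7 CPM in the 8 vehicle livers (median 15.3), overlapping both risk groups. Cyp1a2 ranged from 40.8 to 443 CPM (median 327) and Cyp1b1 from 1.11 to 9.86 CPM (median 1.67). The wide ranges came from few livers: vehicle 6 had the lowest Nr1i3 and Cyp1a2 and the highest Cyp1b1 of the group, and vehicle 4 had the next values in each of these orders, at 5.75, 169 and 6.70 CPM.

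In high-risk against vehicle livers of 5 months, Cyp1a2 fell by 1.65 on the log2 scale (SE 0.32, adjusted p = 0.000985) and Cyp1b1 rose by 1.79 (SE 0.43, adjusted p = 0.00497). These were 2 of 9 members, where 15.8% of all genes passed. For Nr1i3 the log2 fold change was -1.36 (SE 0.50) with an adjusted p of 0.0584 in edgeR, 0.0402 without low-risk 24, which shares the fit, and 0.0157 in DESeq2. Batch 2 held 1 vehicle liver, and within batch 1 alone the log2 fold changes of Cyp1a2, Cyp1b1 and Nr1i3 were -1.76, 2.10 and -2 with adjusted p of 0.143, 0.127 and 0.190, so none passed there. Without the deviating libraries of both batches, Cyp1a2 was at -1.64 (SE 0.38, adjusted p = 0.00411), Cyp1b1 at 1.48 (SE 0.47, adjusted p = 0.0261) and Nr1i3 at -1.06 (SE 0.54, adjusted p = 0.161). Low-risk against vehicle livers gave 0 of 9 members and 0% of all genes by edgeR, with 934 genes at an unadjusted p under 0.05 and 52 called by DESeq2. Between high-risk and vehicle livers 5 of 8 pericentral markers fell and 7 of 9 stellate cell and fibroblast markers rose, with sums in vehicle livers of 2240 to 12000 CPM and 146 to 754 CPM, and their part was not tested. The largest log2 fold changes between low-risk and vehicle livers were -0.96 for Cyp1b1 (SE 0.42, unadjusted p = 0.0277) and 0.82 for Nr1i3 (SE 0.43, unadjusted p = 0.0669), or -1.05 and 0.94 without deviating libraries.

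At 10 months the high-risk mice were represented by liver outside their tumors, and the same 3 members differed from low-risk livers. The uninvolved libraries also differed from low-risk ones in depth, genes detected and mitochondrial counts, as given above, and the part of these in the results was not tested. Nr1i3 was at 10.8, 13.03, 18.6, 20.1 and 37.0 CPM in the 5 uninvolved samples and at 32.5, 44.2, 44.7, 46.5 and 60.1 CPM in the 5 low-risk livers. Uninvolved liver 7 alone reached the low-risk range. The log2 fold change was -1.21 (SE 0.36, adjusted p = 0.0114), and that of Tomm40l was 0.36 (SE 0.23, adjusted p = 0.202). Cyp1a2 was at 93.2, 95.4, 101, 111 and 179 CPM in uninvolved and at 196, 214, 281, 336 and 364 CPM in low-risk livers. The groups did not overlap (log2 fold change -1.28, SE 0.20, adjusted p = 6.39e-05). Cyp1b1 was at 6.74, 8.66, 9.21, 9.26 and 11.2 CPM against 1.08, 1.83, 1.89, 2.20 and 2.27 CPM, again without overlap and 4.83-fold higher (log2 2.27, SE 0.20, adjusted p = 2.87e-07).

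Cyp1a1 and Por also passed in this comparison, so that 5 of the 10 members did, against 52.4% of all genes. Cyp1a1 was at 0.0767, 0.160, 0.289, 0.299 and 0.319 CPM in uninvolved liver, on 3 to 26 counts, and at 0.310, 0.598, 0.824, 0.855 and 0.911 CPM in low-risk liver. Only low-risk liver 9 lay within the uninvolved range (log2 fold change -1.59, SE 0.42, adjusted p = 0.0048). Por was at 195.2, 195.5, 242, 281 and 348 CPM in uninvolved liver and at 109, 122, 154, 195.1 and 203.1 CPM in low-risk liver, where liver 2 alone lay within the uninvolved range. The fold change of Por was 1.60 (log2 0.68, SE 0.24, adjusted p = 0.0233), and the adjusted p rose to 0.0611 to 0.0646 without low-risk 8, low-risk 10 or uninvolved 3 and 6, and to 0.0779 with no filter on low counts. Alas1 had a log2 fold change of -0.96 with an SE of 0.57 (adjusted p = 0.169), its levels spreading from 110 to 507 CPM among the low-risk livers. Nr1i2 had 0.24 (SE 0.11, adjusted p = 0.0689) and passed when low-risk 9, uninvolved 1 or uninvolved 7 was left out (adjusted p 0.0335, 0.0309 and 0.0379) or when uninvolved 3 and 6 were kept apart (0.0364). Ahr at -0.18, Tiparp at -0.17 and Ahrr at -0.81 on the log2 scale had adjusted p of 0.347, 0.191 and 0.163.

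Against the 6 vehicle livers of 10 months, which share the uninvolved livers with the comparison above, 8 of 10 members passed, 3 higher and 5 lower, where 57.7% of all genes did. Nr1i3 ran from 41.1 to 127 CPM in vehicle livers (median 56.8), above every uninvolved sample, and the log2 fold change was -1.89 (SE 0.36, adjusted p = 0.00041). Cyp1a2 ran from 278 to 442 CPM (median 342) and uninvolved liver had 0.333 times that level (log2 fold change -1.58, SE 0.19, adjusted p = 4.15e-06). Cyp1b1 ran from 1.19 to 2.06 CPM (median 1.45), so that uninvolved livers were 5.80-fold higher (adjusted p = 3.09e-08). None of these 3 genes overlapped between the groups, and neither did Cyp1a1 (log2 fold change -1.67, SE 0.41, adjusted p = 0.00231). The share of all genes without overlap was not determined for these groups or for any other comparison here.

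The receptors PXR and AhR moved by smaller amounts against vehicle. Nr1i2 was at 65.4 to 87.2 CPM in uninvolved and at 51.0 to 64.8 CPM in vehicle livers (log2 fold change 0.33, SE 0.10, adjusted p = 0.0123), with no overlap. Tiparp also did not overlap, at 6.82 to 9.51 against 9.84 to 11.6 CPM (log2 fold change -0.34, SE 0.11, adjusted p = 0.0107). For both genes, the share of all genes without overlap is again missing as a background. Ahr fell by 0.44 (SE 0.15, adjusted p = 0.0179), with an adjusted p of 0.0533 without uninvolved 3 and 6. Por rose by 0.75 (SE 0.22, adjusted p = 0.00902). Alas1, at 0.09 with an SE of 0.54, and Ahrr, at -0.60 with an SE of 0.47, did not pass.

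**Figure D3:**
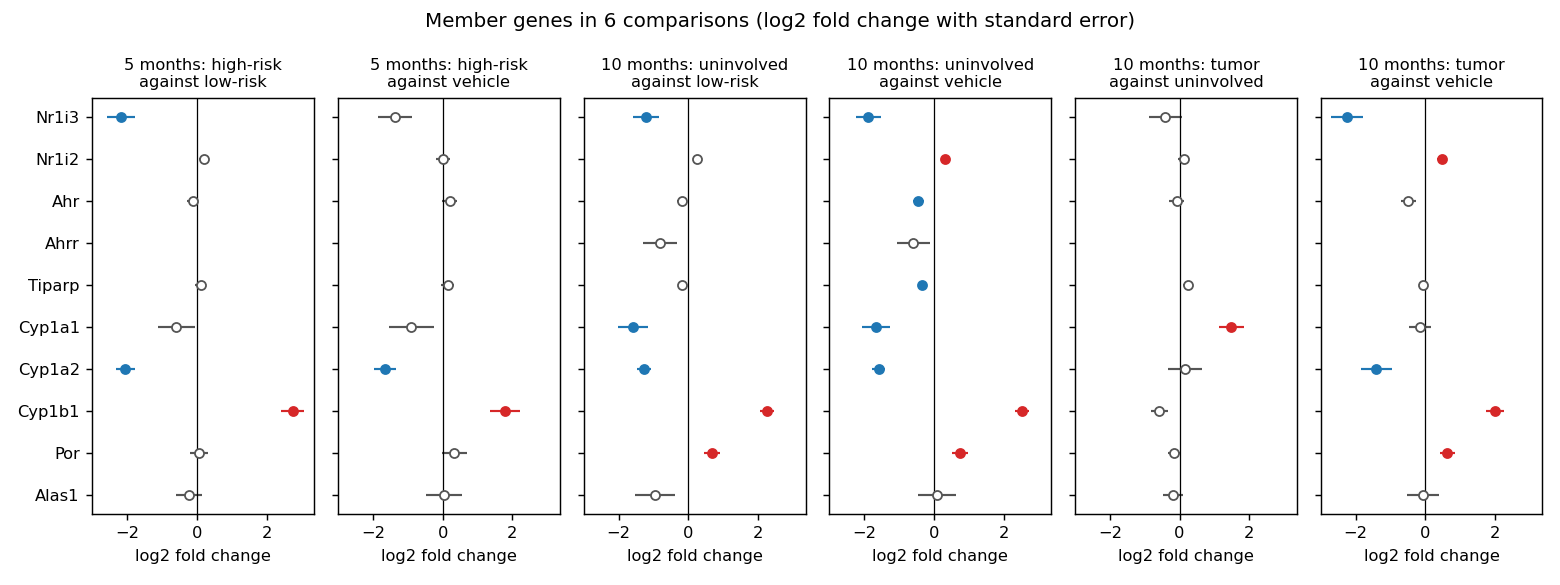
Log2 fold change with standard error of each member in 6 comparisons at 5 and 10 months; filled points passed an adjusted p of 0.05, red where higher and blue where lower, and members not tested are left blank. In the 4 panels of high-risk or uninvolved liver against low-risk or vehicle liver, Cyp1b1 is filled on the right at 1.79 to 2.75 and Cyp1a2 on the left at -1.28 to -2.06.

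In low-risk against vehicle livers of 10 months, 0 of 10 members and 0% of all genes passed by edgeR, with 688 genes at an unadjusted p under 0.05 and 1 called by DESeq2. The lowest unadjusted p among members were those of Nr1i3 (log2 fold change -0.68, SE 0.34, p = 0.0678) and Alas1 (1.05, SE 0.54, p = 0.0724), from edgeR. Whether the difference between high-risk and low-risk livers itself changed from 5 to 10 months was tested as an interaction. No member passed, where 0.448% of all genes did (40.3% of these higher at 10 months, or 60.0% with RLE scaling). The change was 0.96 for Nr1i3 (SE 0.64, adjusted p = 0.571), 0.76 for Cyp1a2 (SE 0.35, unadjusted p = 0.0353, adjusted p = 0.372) and -0.48 for Cyp1b1 (SE 0.43, adjusted p = 0.691). Without deviating libraries these were 0.76, 0.66 and -0.28, and 0 members passed. The interaction uses both batches of 5 months and compares livers of mice that had tumors at 10 months with livers of 5 months.

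Markers were also called at 10 months, beside 52.4% of all genes between uninvolved and low-risk livers. Between uninvolved and low-risk livers 5 of 8 pericentral markers fell, and their summed level was 2030 to 6840 CPM against 9150 to 11100 CPM. Of 9 stellate cell and fibroblast markers 6 rose and 1 fell (618 to 834 CPM against 393 to 558 CPM), all 5 cholangiocyte markers rose (105 to 209 CPM against 37.2 to 59.8 CPM), and 5 of 7 macrophage markers fell while 1 rose (186 to 377 CPM against 361 to 461 CPM). Against vehicle livers, whose pericentral sum was 9500 to 14000 CPM, 6 of 8 pericentral markers fell in uninvolved liver and 3 of 8 in tumors (1220 to 8760 CPM). Of all genes, 57.7% passed in uninvolved liver and 45.9% in tumors, so the count of 3 in tumors lay below the background. Stellate cell and fibroblast markers rose in 6 of 9 cases in uninvolved liver and in 5 of 9 in tumors, with 1 falling in each (306 to 534 CPM in vehicle liver and 482 to 836 CPM in tumors). All 5 cholangiocyte markers rose in both (38.0 to 54.0 CPM in vehicle liver and 145 to 768 CPM in tumors). Their part in the results was not tested.

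Tumors were compared with uninvolved liver of high-risk mice, without pairing by mouse in the main fit. Tumor 11 had no uninvolved sample of the same number. The uninvolved libraries also differed from the tumors in depth, genes detected and mitochondrial counts, as given above, and the part of these was not tested. Of 9 members only Cyp1a1 passed, where 18.1% of all genes did. It ran from 0.398 to 1.09 CPM in the 7 tumors (median 0.548, 12 to 32 counts), above the 0.0767 to 0.319 CPM of uninvolved liver, and was 2.80-fold higher (log2 1.49, SE 0.37, adjusted p = 0.016). With the mouse as a block, 6 pairs gave a call for Cyp1a1 and for Cyp1b1 (log2 fold change -0.66, adjusted p = 0.0388), while 4 pairs, without the nearly identical uninvolved livers, gave 0 calls, with Cyp1a1 at 1.49 (adjusted p = 0.0616). Cyp1b1 ran from 3.88 to 10.4 CPM in tumors and had a log2 fold change of -0.58 without the block (SE 0.24, adjusted p = 0.108), or -0.76 without tumor 7 (adjusted p = 0.0225). Nr1i3 was at 4.23 to 38.9 CPM in tumors (median 11.2), with 22.6 CPM in tumor 6 and 38.9 CPM in tumor 7, and Cyp1a2 was at 53.0 to 421 CPM (median 66.9), with 421 CPM in tumor 6. The log2 fold changes of Nr1i3 and Cyp1a2 against uninvolved liver were -0.40 (SE 0.48) and 0.15 (SE 0.49).

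Against vehicle livers, 5 of 9 members passed in tumors, where 45.9% of all genes did; these tumors and vehicles also serve in the comparisons above. Nr1i3 lay below every vehicle liver (log2 fold change -2.24, SE 0.47, adjusted p = 0.00171), while Tomm40l had 0.32 (SE 0.22, adjusted p = 0.239). Cyp1b1 lay above every vehicle liver at 4-fold (SE of log2 0.26, adjusted p = 3.98e-05), but with the tumor-labelled vehicle library among the vehicles the log2 fold change was 1.07 (adjusted p = 0.128). Cyp1a2 fell by 1.402 (SE 0.45, adjusted p = 0.0214, or 0.0668 with no filter on low counts), with tumor 6 within the vehicle range. Nr1i2 rose by 0.48 (SE 0.15, adjusted p = 0.0147), tumor 12 being highest at 130 CPM. Por rose by 0.64 (SE 0.21, adjusted p = 0.024, or 0.0554 to 0.0561 without vehicle 1, 5 or 6). Cyp1a1, at -0.15, and Ahr, at -0.49 (adjusted p = 0.0727, and 0.0297 without tumor 6), did not pass. The vehicle library labelled as a tumor had 7.27 CPM of Nr1i3, 118 CPM of Cyp1a2 and 11.1 CPM of Cyp1b1.

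Maternal TBT was compared with vehicle at 3 weeks of age, before risk labels apply. The members passed in 0 of 9 cases, as did 0% of all genes by edgeR, with 474 genes at an unadjusted p under 0.05 and 2 called by DESeq2. Nr1i3 ran from 7.67 to 36.6 CPM in 8 TBT livers (median 19.5) and from 8.82 to 32.5 CPM in 7 vehicle livers (median 15.8). Cyp1a2 ran from 72.7 to 361 and from 110 to 245 CPM, and Cyp1b1 from 1.23 to 2.43 and from 0.940 to 2.89 CPM. The largest log2 fold change was that of Alas1, at 0.56 (SE 0.36, unadjusted p = 0.137 from edgeR). Without the library labelled TBT 4, 0 members passed and Alas1 was at 0.57 (SE 0.38), and without the deviating library of vehicle mouse 3 it was at 0.56 (SE 0.36), again with 0 members passing.

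Age was followed in vehicle livers of batch 1 at all 3 ages. From 3 weeks to 5 months 1 of 9 members passed, where 24.2% of all genes did. It was Tiparp, which ran from 9.34 to 20.9 CPM at 3 weeks and fell by 0.63 (SE 0.17, adjusted p = 0.00919). Cyp1b1 had a log2 fold change of 1.16 (SE 0.44, adjusted p = 0.0593), and DESeq2 called it (adjusted p = 0.0271). From 5 to 10 months 1 of 9 passed, where 14.1% of all genes did. Nr1i3 rose 4.4-fold (log2 2.14, SE 0.43, adjusted p = 0.00391), and its 6 values at 10 months, from 41.1 CPM, lay above all 7 of batch 1 at 5 months, which reached 35.7 CPM. Tomm40l had 0.14 (SE 0.26, adjusted p = 0.763) over this step. Cyp1b1 at -1.35 (SE 0.46), Por at -0.72 (SE 0.30) and Alas1 at -1.39 (SE 0.58) had adjusted p of 0.0512, 0.105 and 0.114. DESeq2 called Cyp1b1 and Alas1 too, and the fit without deviating libraries called Por, Alas1 and Nr1i2.

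Low-risk livers of batch 1 took the same age step without a call, 0 of 9 members and 0% of all genes by edgeR, with 1123 genes at an unadjusted p under 0.05 and 64 called by DESeq2. Nr1i3 had a log2 fold change of 0.34 there (SE 0.33, adjusted p = 0.844), and Cyp1a2 had -0.84 (SE 0.23, unadjusted p = 0.0027, adjusted p = 0.562). Whether the step of Nr1i3 differed between vehicle and low-risk livers was not tested. Ordered by median, Nr1i3 went from 5.59 CPM in high-risk livers of 5 months through tumors (11.2), vehicle of 5 months (15.3), vehicle of 3 weeks (15.8), uninvolved (18.6), TBT of 3 weeks (19.5), low-risk of 5 months (33.6) and low-risk of 10 months (44.7) to vehicle of 10 months (56.8). The ranges of all neighbours in that order overlapped. In the order of Cyp1b1, the 6 groups of vehicle, 3-week TBT and low-risk livers had medians of 1.45 to 1.89 CPM and overlapped. The tumors, next in order with a median of 4.93 CPM, did not overlap their neighbour, the low-risk livers of 10 months, but did overlap the vehicle livers of 5 months, which reached 9.86 CPM.

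Known targets of the 3 sensors moved in both directions. Of 9 tested targets of CAR, 5 rose and 3 fell in high-risk against low-risk livers of 5 months, with a median log2 fold change of 0.95 where that of all genes was -0.01 and 38.9% of all genes passed. Cyp2b10, the classical CAR target, was at 0 to 2.84 CPM in low-risk livers, with a median of 0, and at 0.0692 to 10.7 CPM in high-risk livers, with a median of 3.35 (log2 fold change 3.34, SE 0.81, adjusted p = 0.0013). Abcc4, a drug efflux pump, rose by 2.04 (SE 0.19, adjusted p = 6.57e-09) and Cyp2c55 by 2.25 (SE 0.25, adjusted p = 7.69e-08). The more abundant Cyp2c29 fell from a median of 806 to 126 CPM (log2 fold change -2.17, SE 0.33, adjusted p = 5.15e-06), Cyp2c37 fell by 2.94 and Ugt1a1, which conjugates bilirubin, by 1.18. The summed CPM of the list had a median of 1140 in low-risk and 286 in high-risk livers.

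For PXR, 3 of 8 targets rose and 1 fell at 5 months, with a median of 0.04, a share near the 38.9% of all genes. Cyp3a11, the main PXR-induced P450 of mouse liver, ran from 1854 to 4258 CPM in high-risk and from 199 to 1508 CPM in low-risk livers, without overlap (log2 fold change 2.17, SE 0.28, adjusted p = 4.53e-07). Abcb1a, the P-glycoprotein pump, rose by 2.39 (SE 0.32) and Cd36, a fatty acid carrier, by 1.99 (SE 0.27), while the carboxylesterase Ces2a fell by 1.26 (SE 0.24). The log2 fold changes of Cyp3a13, Cyp3a25, Abcc2 and Slco1a4 lay between -0.29 and 0.14 and did not pass. Of the AhR battery, 3 of 6 tested genes rose and 2 fell, with a median of 0.87, beside the same 38.9%. Nqo1, a quinone reductase, rose by 1.66 (SE 0.29), Gsta1 by 3.995 (SE 0.80) and Cyp2a5 by 1.35 (SE 0.30), and the conjugating genes Ugt1a6a and Ugt1a6b fell by 0.87 and 0.69. On chromosome 1 the spans of Ugt1a6a, Ugt1a6b and the CAR target Ugt1a1 overlap on the same strand, ending at 88218997, 88219003 and 88218997. Exon bases shared between them were not determined, so their counts might not be separate. Gsta1, Nqo1 and Cyp2a5 are also known targets of NRF2 or other regulators, and the list does not single out AhR.

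**Figure D4:**
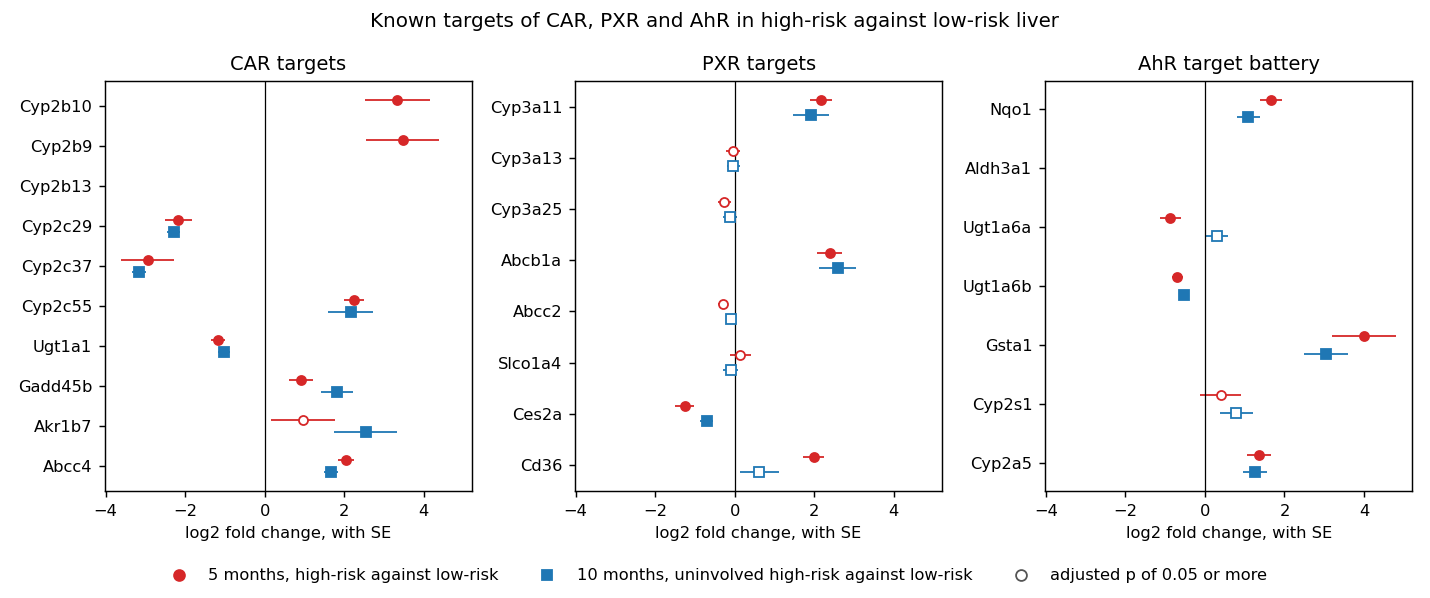
Log2 fold change with standard error of listed CAR, PXR and AhR targets in high-risk against low-risk liver at 5 months (red circles) and 10 months (blue squares, uninvolved liver); open symbols did not pass an adjusted p of 0.05 and genes not tested are blank. Each list holds filled points on both sides of 0 at both ages, for example Abcc4 at 2.04 and 1.67 and Cyp2c37 at -2.94 and -3.16.

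At 10 months, 4 of 7 tested CAR targets rose and 3 fell in uninvolved against low-risk liver, with a median of 1.67 where that of all genes was 0.05 and 52.4% of all genes passed. Cyp2c37 fell from a median of 186 to 20.5 CPM (log2 fold change -3.16, SE 0.18, adjusted p = 4.34e-09) and Cyp2c29 from 793 to 172 CPM (-2.29, SE 0.17, adjusted p = 2.73e-08), neither with any overlap. Cyp2b10 was too low to be tested there. Of 8 PXR targets 2 rose and 1 fell (median -0.06), a share below that 52.4%, with Cyp3a11 higher by 1.92 (SE 0.45, adjusted p = 0.00241) and Abcb1a by 2.59 (SE 0.47, adjusted p = 0.000343). Of 6 AhR battery genes 3 rose and 1 fell (median 0.94), and Ugt1a6a, at 0.30, did not pass.

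In tumors against uninvolved liver, Abcc4 (1.52, SE 0.43) was the only CAR target of 8 to pass and Cd36 (1.08, SE 0.32) the only PXR target of 8, where 18.1% of all genes passed. Of 6 AhR battery genes 3 rose: Nqo1 by 1.70 (SE 0.49), Gsta1 by 2.44 (SE 0.69) and Cyp2a5 by 1.11 (SE 0.34), with adjusted p of 0.0309, 0.0288 and 0.0367. Gsta1 ran from 3.20 to 72.6 CPM in tumors and from 1.59 to 16.2 CPM in uninvolved liver. Against vehicle liver, tumor Cyp2b10 rose by 7.31 (SE 1.42, adjusted p = 0.00102), from 0 to 0.0847 CPM in vehicle to 0.342 to 30.2 CPM in tumors, a fold that depends on few vehicle counts. Abcb1a rose by 4.16 (SE 0.51) and Cyp3a11 by 2.80 (SE 0.38) in the same comparison.

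Age in vehicle livers touched the CAR list most at the first step. From 3 weeks to 5 months 5 of 10 CAR targets fell and 0 rose (median -1.10, all genes 0.02, of which 24.2% passed), Cyp2b9 from 56.6 to 142 CPM down to 0.206 to 2.12 CPM (log2 fold change -7.48, SE 0.57, adjusted p = 1.1e-08) and Cyp2c55 by 2.56 (SE 0.31). Of the PXR targets, 1 of 8 rose and 2 fell, and Slco1a4, an organic anion carrier, fell by 2.21 (SE 0.17, adjusted p = 6.32e-09). All 6 endothelial markers and 6 of 9 stellate cell and fibroblast markers also fell over this step, endothelial sums going from a median of 517 CPM to 296 CPM, and their part in it was not tested. From 5 to 10 months, when Nr1i3 rose, Cyp2c29 rose by 1.13 (SE 0.37, adjusted p = 0.0427), Ugt1a1 rose by 0.80 (SE 0.23, adjusted p = 0.022) and Cyp2b10 fell by 4.18 (SE 1.02, adjusted p = 0.0106). The other 7 CAR targets did not pass, and 14.1% of all genes did.

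In high-risk livers of 5 months 3 of 12 partner and chaperone genes fell and 0 rose, below the 38.9% of all genes that passed. These were Rxra, the shared partner of CAR and PXR, by 0.37 (SE 0.14, adjusted p = 0.0281), Ptges3, the p23 co-chaperone of the AhR complex, by 0.27 (SE 0.11) and the corepressor Nr0b2 by 0.79 (SE 0.29). In uninvolved liver 5 of 12 fell and 1, Arnt, rose, by 0.27 (SE 0.09, adjusted p = 0.0143), a share near the 52.4% of all genes. Rxra fell by 0.48 (SE 0.11), and Hsp90aa1 by 0.61 (SE 0.17). Of 13 genes of heme synthesis, heme breakdown and their regulation, 9 fell and 2 rose at 5 months (median -0.37), where 38.9% of all genes passed. Those that fell included genes of synthesis and, of breakdown, Hmox2 and Blvra. Among the former, Alad fell by 0.87 (SE 0.16, adjusted p = 4.54e-05) and Urod by 0.72 (SE 0.12, adjusted p = 2.38e-05), which are later steps of the pathway that Alas1 starts. Those that rose were Hmox1, the inducible heme oxygenase, and Ppargc1a, a coactivator of Alas1. At 10 months 7 of 13 fell and 1 rose, where 52.4% of all genes passed, with Alad at -0.56 (SE 0.08) and Urod at -0.62 (SE 0.09). Of 4 genes of cytochrome b5 and its reductases, 3 fell and 1 rose at 5 months, and 1 fell and 0 rose at 10 months, beside the same shares of all genes. Among them Cyb5b fell by 0.79 (SE 0.14) at 5 months and by 1.13 (SE 0.11, adjusted p = 1.04e-06) at 10 months, where Por rose.

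Within groups, members also varied together from mouse to mouse. Deviations of log2(CPM + 0.5) from the mean of the group and batch were compared over 71 samples for all 45 member pairs, with permutations of samples within groups and batches and Benjamini-Hochberg adjustment, and 10 pairs passed, 5 of them negative. The 71 samples share their libraries between genes, so depth and composition enter both sides. How many pairs of other genes would pass was not determined. Nr1i2 and Por had the highest correlation (r = 0.662, rho = 0.572, permutation adjusted p = 0.000225 and 0.00045), and r was 0.531 without the 2 samples farthest from the median of Nr1i2. Nr1i3 and Cyp1a2 followed (r = 0.577, rho = 0.532, permutation adjusted p = 0.000225 and 0.00045, r = 0.527 without 2 samples). Por and Alas1 had r = 0.519 and rho = 0.459 (permutation adjusted p = 0.00146 and 0.0036), while Ahr and Alas1 had r = -0.435 and rho = -0.377 (permutation adjusted p = 0.0081 and 0.0279). Nr1i3 and Cyp1b1, which moved in opposite directions between risk groups, had r = -0.372 within groups (permutation adjusted p = 0.0489, but 0.066 for a rho of -0.331).

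Several members varied with the circadian clock genes, and sampling time is not given in the labels used here. Dbp, Tef and Hlf are PAR bZIP factors whose transcripts cycle through the day in liver, and PAR bZIP factors are known regulators of Nr1i3, Por and Alas1. Of 140 pairs of a member with 1 of 14 clock genes, 23 passed, 6 of them negative, and all were of Nr1i3, Cyp1a1, Cyp1a2, Por or Alas1. The share that would pass among pairs of other genes was not determined here either. Por rose with Tef (r = 0.754, rho = 0.731, permutation adjusted p = 0.000175 and 0.000233, r = 0.707 without 2 samples) and was low where Npas2 was high (r = -0.677, rho = -0.604, permutation adjusted p = 0.000175 and 0.000233). Nr1i3 rose with Hlf (r = 0.664, rho = 0.578, permutation adjusted p = 0.000175 and 0.000233, r = 0.599 without 2 samples). Alas1 was low where Arntl, the clock activator BMAL1, was high (r = -0.489, rho = -0.587, permutation adjusted p = 0.000175 and 0.000233). The unadjusted p of these pairs was 1e-05, the smallest that 100000 permutations can give.

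**Figure D5:**
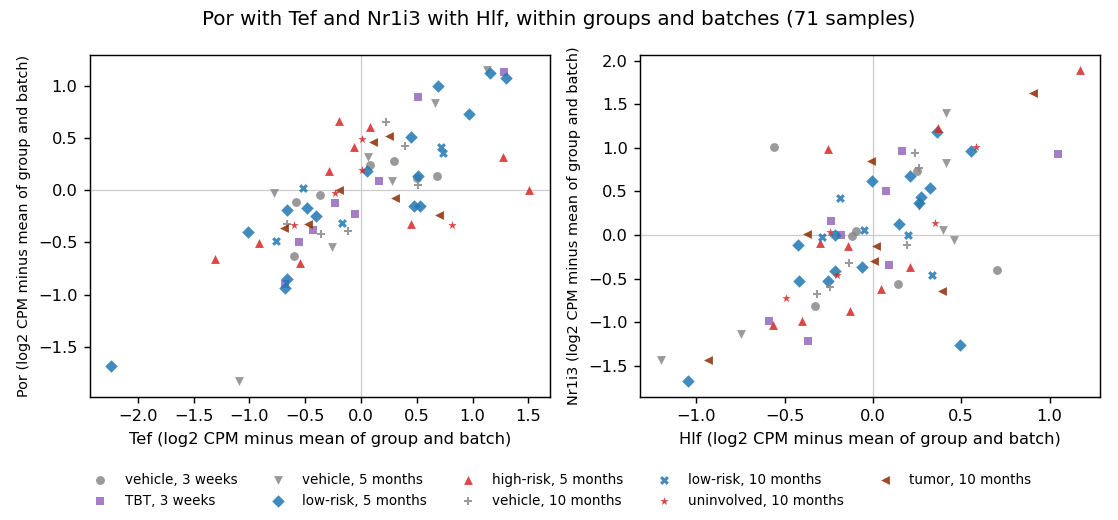
Deviation of log2(CPM + 0.5) from the mean of the group and batch, Por against Tef (left, r = 0.754) and Nr1i3 against Hlf (right, r = 0.664), with 71 samples marked by group. In both panels points rise from lower left to upper right, with samples of 5 months among the lowest and the highest.

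Between the risk groups of 5 months 6 of 14 clock genes fell and 0 rose, a share near the 38.9% of all genes. Between high-risk and vehicle livers 1 of 14 rose and 0 fell, where 15.8% of all genes passed. In high-risk against low-risk livers Hlf fell by 1.10 (SE 0.21, adjusted p = 8.32e-05) and Cry2 by 0.91 (SE 0.17, adjusted p = 6.53e-05), beside the lower Nr1i3. In uninvolved against low-risk livers of 10 months only 1 of 14 rose and 1 fell, a share below the 52.4% of all genes. Hlf was at -0.29 there (SE 0.19, adjusted p = 0.219), while Nr1i3 was lower there too. Between 5 and 10 months in vehicle livers Hlf was at -0.01 (SE 0.25), with Cry1 higher by 1.11 and Ciart lower by 2.50. The part of sampling time in the levels of Nr1i3, Por and Alas1 was not tested.

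Genes most like each receptor were sought among 9516 genes over the same deviations. Nr1i3 was closest to Cyp2e1 (r = 0.812, rho = 0.820), BC024386 (r = 0.809) and Chd3 (r = 0.776). Cyp2e1, the ethanol-metabolising P450, is among the pericentral markers above, and it fell by 2.18 in high-risk livers of 5 months and by 1.01 in uninvolved livers of 10 months. Nr1i2 was closest to Plin5 (r = 0.828, or 0.701 over the 67 samples without deviating libraries), Rnf19a (0.773) and Rtf2 (0.767). Ahr was closest to Fign (0.626), Znrf3 (0.617) and Lgr5 (0.592), the last 2 being a Wnt feedback gene and a Wnt receptor partner of pericentral hepatocytes. These values were ranked over all genes and are a description without a test.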

How the data were processed

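The deposited table holds whole-number read counts per gene for 75 liver libraries, which the authors made with featureCounts and adjusted with ComBat-seq, per the file name. The tools named are Trim Galore, HISAT2 and featureCounts on mm10, per the submitters' processing notes, and the strand setting, annotation and ComBat-seq settings are not given in the sources used here. Adjusted counts can differ from read numbers, so low counts such as those of Cyp1a1 and Ahrr carry that uncertainty too.

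Differences were tested by the robust quasi-likelihood method of edgeR 4.0.16 (R 4.3.3) after filterByExpr and TMM scaling, with Benjamini-Hochberg adjustment over all genes and a threshold of 0.05, with batch as a covariate at 5 months and in the interaction, and batch 1 alone for the age steps. Levels are TMM-scaled counts per M counts (CPM). All 55536 gene IDs matched GENCODE M21, which gave exon lengths. Both libraries of vehicle mouse 3 were summed, as were uninvolved libraries 3 and 6, whose counts differed by a chi-square per degree of freedom of 4.54, against 18.4 or more for the other pairs. Tumor and uninvolved samples with the same number were taken as the same mouse, and their deviations from the group means correlated at 0.02, -0.04, -0.01, -0.27, 0.65 and 0.07 for mice 1, 3, 5, 6, 7 and 12.

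Alternatives were RLE scaling, no filter, DESeq2 1.42.0, other sample sets, replicate blocks and leaving out replicates. Each replicate was left out in turn only in comparisons within the oldest age and in low-risk livers across ages. Within the younger ages, the only replicates left out singly were those whose Xist counts stood out. The comparisons within the younger ages, the vehicle age steps and the interaction were therefore not tested by leaving out each replicate. The members and lists were chosen with earlier results of these data known. Members that passed the filter were tested in every comparison, but for some comparisons the text gives only some of them. A rule set up to 2 genes of smallest adjusted p per list and comparison, and only some of these are named. Other list genes, among them Cyp2b10, Cyp2c29 and Cyp3a11, were named with their values seen. Scripts were tested on simulated data.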

Additional observations from a re-analysis of the deposited data

Results flagged for a closer look

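In 8 of 80 combinations of a member and a group of 4 to 10 samples, the highest sample lay apart from the others by Dixon's criterion. Its limits flag about 1 in 20 groups of independent, normally distributed values. They were applied to CPM without a log scale, and combinations share libraries, so these 8 cannot be compared with that rate. Cyp1a2 accounted for 3: high-risk liver 1 of 5 months (189.9 CPM), uninvolved liver 12 (178.9 CPM) and tumor 6 (421.0 CPM) were each the highest of a group whose other samples were low. Cyp1b1 was highest in high-risk liver 15 of 5 months (25.55 CPM), a library with 14.5% mitochondrial counts. Ahrr was highest in vehicle 9 (6.492 CPM) and high-risk 10 (2.119 CPM) of 5 months, which were also the libraries with 38206 and 39669 genes detected. Nr1i2 was highest in tumor 12 (130.3 CPM), and Tiparp in TBT liver 6 of 3 weeks (18.2 CPM).

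The vehicle library of 10 months labelled as a tumor, which entered no comparison, had 11.1 CPM of Cyp1b1 and 12.36 CPM of Tiparp, both above every vehicle liver of that age. It is 1 library, with 14.1% mitochondrial counts, and no test was made of it.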

How the results depend on the processing

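Over all comparisons, 1375 of 1417 values of single members under an alternative kept their side of the threshold, 20 newly passed and 22 no longer passed. Of the values that passed in the main fit or the alternative, 0 reversed direction. A change of direction was not counted where neither fit passed. Counts of members called differed in 29 of 153 cases, by over 1.5 times in 13 of them, which follow. The cause of these changes was not tested. With no filter on low counts, 3 members passed in tumor against vehicle (5 before). DESeq2 called 2 from 3 weeks to 5 months and 3 from 5 to 10 months in vehicle livers (1 each before), the fit without deviating libraries called 4 at the later step, and keeping the libraries of vehicle mouse 3 apart called 2 at the earlier step. Batch 1 alone gave 0 in high-risk against vehicle at 5 months (2 before). For tumor against uninvolved liver (1 before), the mouse as a replicate block gave 2 with 6 pairs and 0 with 4 pairs, and leaving out a replicate gave 1 to 2. With title numbers as a replicate block, although they name no shared animal, 0 members passed in high-risk against vehicle, 5 in uninvolved against vehicle (8 before), 3 in tumor against vehicle and 2 from 5 to 10 months, where Nr1i3 was at 2.08 with an adjusted p of 0.109. No paired analysis was possible for low-risk livers across ages because those of batch 1, which this comparison uses, share fewer than 2 numbers. Over all genes, the counts that moved most were as follows. With no filter, high-risk against vehicle went from 2341 to 1211, the vehicle age steps from 3616 to 2172 and from 2107 to 1128, the interaction from 72 to 4 and TBT against vehicle at 3 weeks from 0 to 3. DESeq2 gave 3438 for the later age step, 231 for the interaction, 52 and 1 for low-risk against vehicle at 5 and 10 months, 64 for low-risk across ages and 2 at 3 weeks. Without deviating libraries the age steps gave 5790 and 3448 (5757 for the first with mouse 3 apart) and low-risk against vehicle at 5 months 1. Batch 1 alone gave 773 for high-risk against low-risk (5745 before) and 0 against vehicle, fitting 2 groups alone gave 1338 against vehicle, and no batch term gave 20 for low-risk against vehicle. Keeping uninvolved 3 and 6 apart gave 122 for the interaction. Adding the tumor-labelled vehicle library to the vehicles gave 6019 for uninvolved (9427 before) and 4206 for tumor against vehicle (7016 before), and 671 for the later age step. The mouse block with 6 pairs gave 1920 for tumor against uninvolved (2961 before), and leaving out uninvolved 1, 5 or 7 gave 1580, 1590 and 1611. The title block gave 0 for high-risk and 3972 for tumor against vehicle. Leaving out low-risk 6 or 7 of 5 months gave 1 for low-risk across ages. Cyp1a1 and Ahrr rested on few counts, at most 49 and 20 in a library.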
